A study of Mus musculus with 20 samples.

Results

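Skeletal muscle shortens when the thin actin filaments of its sarcomeres slide past the thick myosin filaments. The 32 genes described here encode parts of that machine and its calcium supply, and they were taken as a fixed list of symbols from a table of 24411 genes measured in the mouse eyecup. Of the 32, 9 encode thin filament proteins, 5 encode thick filament proteins or their regulators, 8 encode titin, Z disc proteins and desmin, 6 handle calcium and 4 serve energy supply or oxygen storage. The low count filter left 18807 genes, and each of the 32 was among them.

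The tissue was the posterior eyecup, retinal pigment epithelium (RPE) with choroid, of mice labelled C57BL/6 (the study's methods put *Stra6-/-* on a C57BL/6J background), and RNA sequencing gave 20 libraries in 4 groups of 5. Wild type (WT) mice came from a commercial supplier, and *Stra6-/-* mice, which lack the membrane receptor that brings retinol into the RPE, were bred in the study's own colony and carry the deletion in every cell. From weaning, at which the labels put the pups at about 28 days of age, mice ate for 12 weeks either a vitamin A sufficient (VAS) diet with 4 IU of vitamin A per gram or a vitamin A deficient (VAD) diet with 0 IU per gram, so the groups were VAS WT, VAD WT, VAS *Stra6-/-* and VAD *Stra6-/-*. Each RNA sample pooled 2 eyecups from which muscle and connective tissue had been removed and the retina peeled. The study describes the 2 eyecups of each mouse as 1 biological replicate, with 5 mice in each group. Values are the authors' read counts per gene divided by 1 size factor per library, called normalized values below.

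Some libraries stood apart in *Stra6* or in sex-linked genes. *Stra6* averaged 2591 ± 149 (SD, n = 5) in VAS WT, against 629 ± 49.8 in the other group on that diet, VAS *Stra6-/-*. On the deficient diet it averaged 986 ± 415 in VAD WT and 2163 ± 154 in the libraries labelled VAD *Stra6-/-*, an order opposite to the genotype label. *Stra6* is expressed in the RPE, and RPE markers differed as well. A list of 10 RPE markers summed on average to 137053 in VAS WT and 152533 in VAS *Stra6-/-*. It summed to 59139 in VAD WT and 579550 in the libraries labelled VAD *Stra6-/-*. Relative to this sum, mean *Stra6* was lower in both groups with the *Stra6-/-* label than in either WT group. The level of *Stra6* alone therefore does not show whether a genotype label is wrong. *Xist*, the RNA that coats the silenced X chromosome in females, ranged from 7.69 to 38.4 in VAS WT and from 15320.2 to 18052 in VAS *Stra6-/-*, whereas *Ddx3y*, on the Y chromosome, ranged from 981 to 1193 in VAS WT and did not exceed 1.02 in VAS *Stra6-/-*. On the sufficient diet, therefore, genotype and the level of these sex-linked genes cannot be told apart. VAD WT replicates 2 and 4 carried *Xist* at 10912 and 11767 and replicates 1, 3 and 5 at 174, 194 and 234, and every library labelled VAD *Stra6-/-* held both genes (3569.8 to 4279.6 for *Xist* and 741 to 969.7 for *Ddx3y*). Counts of genes called against VAD WT are therefore given with all 5 libraries. They are given again without replicates 2 and 4 or without replicates 1, 3 and 5, as are the values of genes whose results turn on them. In VAD WT, *Ddx3y* was 75.2 and 80.5 in replicates 2 and 4 and 1041 to 1133 in replicates 1, 3 and 5. Every library labelled VAD *Stra6-/-* held *Xist* and *Ddx3y* together, and whether each library is 1 mouse was not tested. All adjusted p-values treat the libraries as independent samples, and they would be too small if libraries of a group shared mice.

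In a muscle fibre, an action potential opens the voltage sensor CACNA1S in the membrane, which opens the ryanodine receptor RYR1, and calcium leaves its store in the sarcoplasmic reticulum. Calcium binds troponin C on the thin filament, which moves troponin and tropomyosin aside so that myosin can pull on actin, and the pump ATP2A1 then returns calcium to the store. Fast and slow fibres use different paralogs of many of these proteins. In the orbit the best known source of this set is the extraocular muscles, which insert on the outside of the globe. The choroid also holds smooth muscle, which shares *Des* and *Tpm2* with skeletal muscle but not the troponins. In these bulk samples, fewer fibres and less RNA per fibre cannot be told apart.

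The bases before the start of transcription are shown for 5 of the genes, because *Acta1*, *Mylpf* and *Ckm* followed the common pattern of the list and *Casq1* and *Pygm* departed from it in the libraries labelled VAD *Stra6-/-*. RefSeq promoter entries (GRCm38.p6) were found for 25 of the 32 genes and not for *Actn3*, *Mylk2*, *Myoz1*, *Neb*, *Tcap*, *Tnni2* and *Tnnt3*. Each sequence below is the 250 bases before the start, 5′ to 3′ on the gene's own strand, in lower case, with every CAGCTG in capitals. CAGCTG is an E-box, the kind of site that basic helix-loop-helix factors such as MYOD bind, and it reads the same on both strands.
*Acta1* promoter, chr8:123894776-123895025, minus strand: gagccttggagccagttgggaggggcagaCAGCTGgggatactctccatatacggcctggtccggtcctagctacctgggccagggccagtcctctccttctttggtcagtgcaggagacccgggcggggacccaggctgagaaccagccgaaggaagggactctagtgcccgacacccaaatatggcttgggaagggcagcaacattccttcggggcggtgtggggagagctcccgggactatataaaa
*Mylpf* promoter, chr7:127211358-127211607, plus strand: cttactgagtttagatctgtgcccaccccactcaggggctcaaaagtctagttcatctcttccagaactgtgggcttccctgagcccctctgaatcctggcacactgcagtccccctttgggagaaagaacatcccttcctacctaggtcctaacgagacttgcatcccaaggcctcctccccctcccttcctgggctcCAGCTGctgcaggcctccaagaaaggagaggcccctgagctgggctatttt
*Ckm* promoter, chr7:19410844-19411093, plus strand: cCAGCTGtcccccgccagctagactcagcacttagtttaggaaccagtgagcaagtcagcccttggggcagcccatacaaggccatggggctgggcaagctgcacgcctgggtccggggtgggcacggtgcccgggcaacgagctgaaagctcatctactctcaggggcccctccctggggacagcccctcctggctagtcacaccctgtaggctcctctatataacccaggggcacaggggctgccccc
*Casq1* promoter, chr1:172219896-172220145, minus strand: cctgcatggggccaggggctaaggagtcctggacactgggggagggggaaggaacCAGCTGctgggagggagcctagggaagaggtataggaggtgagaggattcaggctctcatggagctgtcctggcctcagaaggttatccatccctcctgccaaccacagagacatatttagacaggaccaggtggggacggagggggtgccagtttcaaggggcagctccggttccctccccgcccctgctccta
*Pygm* promoter, chr19:6384158-6384407, plus strand: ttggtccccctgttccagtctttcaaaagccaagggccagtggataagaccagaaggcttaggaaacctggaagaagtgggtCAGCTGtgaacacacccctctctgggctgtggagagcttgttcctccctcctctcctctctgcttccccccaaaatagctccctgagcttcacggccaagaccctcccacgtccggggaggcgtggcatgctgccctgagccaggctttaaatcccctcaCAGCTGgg

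Of the 30 windows of 250 bases that the 25 genes have, 15 held CAGCTG, against 13.0% of the 32851 windows of the whole table. They belonged to 13 genes, namely *Acta1*, *Atp2a1*, *Cacna1s*, *Casq1*, *Ckm*, *Des*, *Mb*, *Mybpc1*, *Myl1*, *Mylpf*, *Pygm*, *Tnni1* and *Tpm2*. The *Pygm* window held it at 2 places and the other 4 printed windows at 1. CATTCC, the core that TEAD factors bind, stood in 6 of the 30 windows, against 12.6% of all. The MEF2 site stood in 4 (13.3%, against 2.92%), those of *Casq2*, *Pvalb*, *Ttn* and *Xirp2*, and the CArG box of serum response factor in 3 of the 30, against 1.47% of all, which belong to *Acta1* and *Ldb3*. The MEF2 site and the CArG box both have a core of A and T and can share bases. All motifs were searched on both strands, and a match describes the letters and not a bound site. The printed windows of *Acta1*, *Mylpf* and *Ckm*, which followed the common pattern, carried CAGCTG, as did those of the departing *Casq1* and *Pygm*. The genes of the 25 outside these 13, among them *Ttn* and *Tnnt1*, had no CAGCTG in their windows.

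The 32 genes together made up 0.153 to 0.178% of the normalized total of a library in VAS WT, 0.0744 to 0.178% in VAD WT, 0.302 to 0.329% in VAS *Stra6-/-* and 0.200 to 0.228% in the libraries labelled VAD *Stra6-/-*. Their summed normalized value was 25717, 26844, 26831, 26510.3 and 29700.4 in the 5 VAS WT libraries and 58147, 59788, 55307, 60541 and 58267 in VAS *Stra6-/-*. It was 14058, 28686, 14262, 26857 and 14349 in VAD WT, in replicate order, and 38381, 35458, 38639.5, 36703 and 42265 in the libraries labelled VAD *Stra6-/-*. The 4 groups therefore ran from VAS *Stra6-/-* at the top, through the libraries labelled VAD *Stra6-/-*, to VAS WT, and these 3 ranges did not overlap. VAD WT fell into 3 libraries below every other library and 2 within the VAS WT range.

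**Figure D1:**
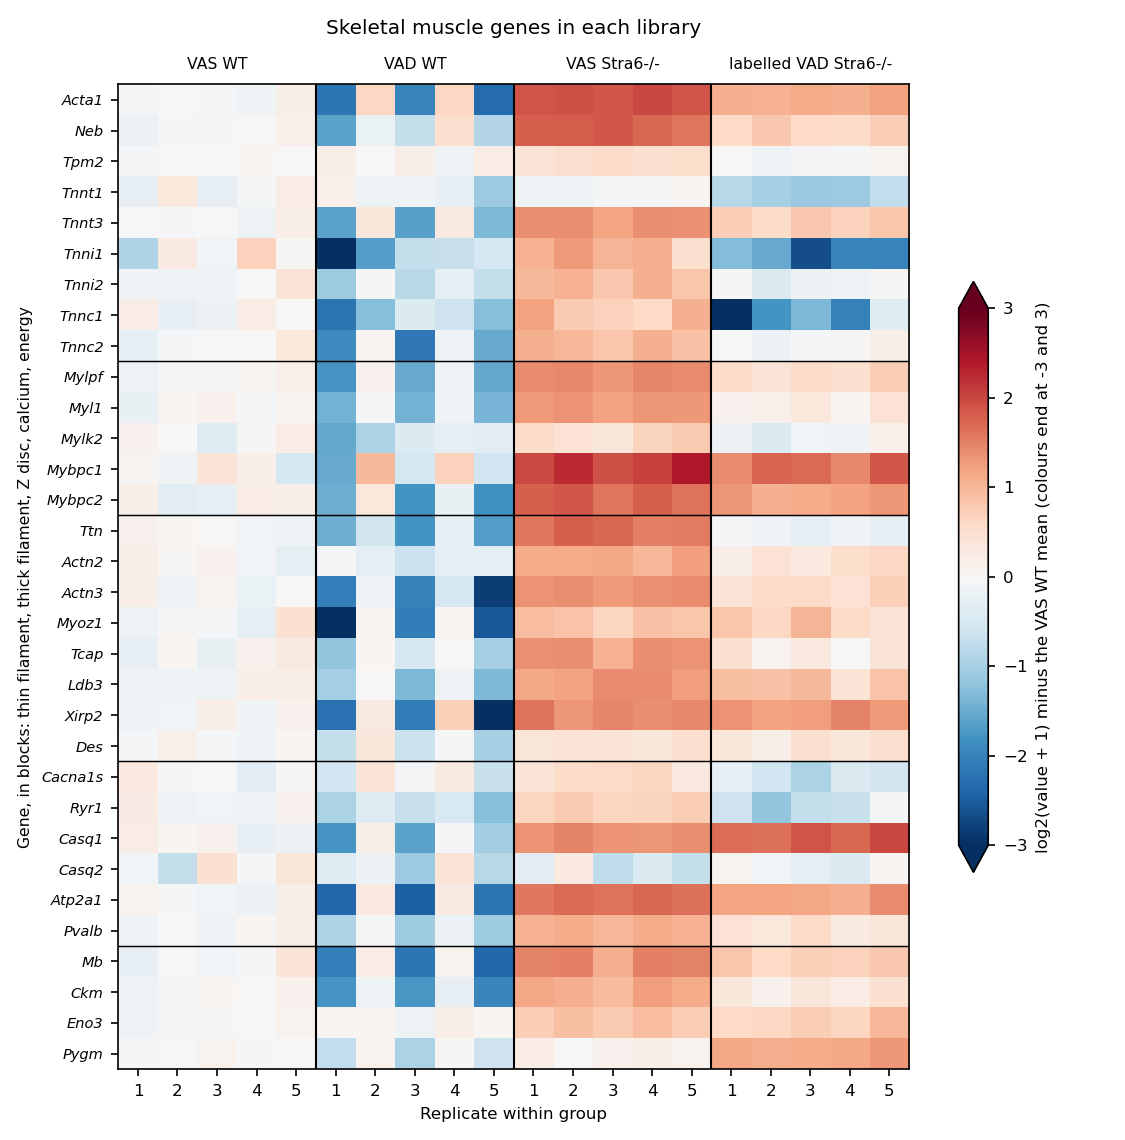
Difference of log2(normalized value + 1) from the VAS WT mean for the 32 genes (rows, in 5 blocks by role) in each of the 20 libraries (columns, 5 replicates per group); red is higher and blue lower. VAS *Stra6-/-* columns are red in nearly every row, VAD WT replicates 1, 3 and 5 are blue in most rows, and *Tnnt1*, *Tnni1* and *Tnnc1* turn blue in the libraries labelled VAD *Stra6-/-*.

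Per kilobase of merged exon, the highest levels in VAS WT belonged to the small proteins of the fast fibre. *Tnnc2*, fast troponin C, led with 2111 ± 329 normalized reads per kilobase (SD, n = 5), ahead of the tropomyosin gene *Tpm2* with 1419 ± 39.3, the calcium buffer gene *Pvalb* with 1186 ± 103 and the fast regulatory light chain gene *Mylpf* with 1056 ± 87.4. The giant proteins stood last, with 6.05 ± 0.430 for *Ttn* (titin) and 5.62 ± 0.482 for *Neb* (nebulin), whose transcripts are the longest of the list. Slow *Tnni1*, at 18.9 ± 7.17, was far below fast *Tnni2*, at 906 ± 156. In VAS *Stra6-/-* the leaders were *Tnnc2* (4113 ± 303) and skeletal actin, *Acta1* (3588 ± 158), and *Tpm2* stood at rank 7.

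On the sufficient diet, loss of *Stra6* went with higher levels of most of the sarcomere and calcium genes. Of the 32, 22 were higher in VAS *Stra6-/-* than in VAS WT at an adjusted p under 0.05, 0 were lower and 10 were not called (limma on log2(value + 1), Benjamini-Hochberg over all genes tested), against 15.9% of all genes tested called higher and 10.8% called lower. At an unadjusted p under 0.05 the counts were 25 higher and 0 lower, and edgeR and DESeq2 also called 0 lower. The median log2 fold change of the 32 was 1.12, against 0.02 over all genes tested. In 28 of the 32 every VAS *Stra6-/-* library lay above every VAS WT library, which held for 19.3% of all genes tested. 1 gene passed a log2 fold change of 2 (0.76% of all genes tested). A fit of these 2 groups alone called 30 higher, against 24.1% of all genes. Since VAS WT libraries carried *Ddx3y* and VAS *Stra6-/-* libraries *Xist*, genotype and sex-linked expression cannot be told apart in any of these values.

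Among thin filament genes, 6 of 9 rose. *Acta1* (chr8:123891769-123894751 on the minus strand), the actin of skeletal thin filaments, had normalized values of 1424, 1486, 1438, 1336 and 1653 in VAS WT and 5375, 5539, 5293, 5914 and 5432 in VAS *Stra6-/-*. The groups did not overlap, and the means differed 3.76-fold (log2 fold change 1.91 ± 0.43, adjusted p = 0.00203). *Neb*, the ruler of thin filament length, rose from 149 ± 12.8 (SD, n = 5) to 509 ± 36.1 (log2 fold change 1.76 ± 0.24, adjusted p = 1.26e-05). Fast troponins rose as well, with log2 fold changes of 1.35 for *Tnnt3* (troponin T), 0.95 for *Tnni2* (troponin I) and 0.97 for *Tnnc2* (troponin C, adjusted p = 0.0183). *Tpm2* rose by less (log2 fold change 0.48 ± 0.072, adjusted p = 3.82e-05). The slow troponins were not called: *Tnni1* had a log2 fold change of 0.98 (adjusted p = 0.353), *Tnnc1* of 0.87 (adjusted p = 0.174) and *Tnnt1* of -0.063 (adjusted p = 0.838). *Tnnt1* ranged from 251 to 369 in VAS WT and from 266 to 312 in VAS *Stra6-/-*, so that here the groups overlapped.

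Among thick filament genes, 4 of 5 rose. *Mybpc1* and *Mybpc2*, the slow and fast forms of a protein that binds and steadies the myosin filament, rose from 152 ± 34.4 to 657 ± 95.8 (log2 fold change 2.12 ± 0.32, adjusted p = 3.50e-05) and from 176 ± 30.8 to 582 ± 44.9 (log2 fold change 1.74 ± 0.30, adjusted p = 1.49e-04). *Mybpc1* was the gene past a log2 fold change of 2. The fast light chain genes *Mylpf* and *Myl1* rose by 1.41 and 1.29 on the log2 scale. *Mylk2*, the kinase that phosphorylates the regulatory light chain, ranged from 112 to 171 in VAS WT and 185 to 253 in VAS *Stra6-/-*, without overlap and without a call (log2 fold change 0.55 ± 0.21, adjusted p = 0.0588).

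Of the 8 genes of titin, the Z disc and desmin, 5 rose, and in each of the 8 the groups did not overlap. *Ttn*, the elastic filament from Z disc to M line, was 769.7, 740.0, 712, 662 and 652 in VAS WT and 2101, 2429, 2316, 2024 and 2076 in VAS *Stra6-/-* (log2 fold change 1.63 ± 0.20, adjusted p = 3.92e-06). The alpha-actinins *Actn2* and *Actn3*, which cross-link actin at the Z disc, rose by 1.13 and 1.36 on the log2 scale, and *Tcap* and *Ldb3*, which anchor titin and actinin there, by 1.31 and 1.29. *Xirp2*, an actin-binding repeat protein, ranged from 125 to 159 in VAS WT and from 347 to 425 in VAS *Stra6-/-* but was not called (log2 fold change 1.45 ± 0.87, adjusted p = 0.246), since the shared spread took in the VAD WT libraries, where it ran from 0 to 225. Without VAD WT replicates 2 and 4 its log2 fold change was 1.45 with adjusted p = 0.0549, and without replicates 1, 3 and 5 it was 1.45 with adjusted p = 3.15e-09. *Myoz1*, a calcineurin-binding Z disc protein, was not called either (log2 fold change 0.83 ± 0.45, adjusted p = 0.192), nor was *Des*, the intermediate filament of muscle (log2 fold change 0.41 ± 0.17, adjusted p = 0.0772).

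Of the 6 calcium genes, 4 rose. *Atp2a1*, the fast-fibre calcium pump of the sarcoplasmic reticulum, was 1752, 1565, 1526, 1431 and 1839 in VAS WT and 4876, 5230.3, 4969, 5333 and 5113 in VAS *Stra6-/-* (log2 fold change 1.66 ± 0.41, adjusted p = 0.00401). *Casq1*, which stores calcium in fast fibres, was 242, 218, 227, 176 and 186 in VAS WT and 532, 586, 529, 524 and 548 in VAS *Stra6-/-* (log2 fold change 1.38 ± 0.27, adjusted p = 5.06e-04). Neither gene's groups overlapped. *Pvalb*, the soluble calcium buffer of fast fibres, and *Ryr1* rose by 1.06 and 0.70 on the log2 scale. *Cacna1s* was not called (log2 fold change 0.49 ± 0.19, adjusted p = 0.0611). The slow and cardiac calsequestrin *Casq2* was low in both groups, 33.6 to 76.8 and 32.5 to 69.1, and was not called (log2 fold change -0.38 ± 0.30, adjusted p = 0.398).

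Of the 4 energy and oxygen genes, 3 rose. *Ckm*, the creatine kinase that regenerates ATP in the fibre, was 2466, 2634, 2792, 2655 and 2919 in VAS WT and 5983, 5749, 5183, 6429.6 and 5791 in VAS *Stra6-/-* (log2 fold change 1.11 ± 0.26, adjusted p = 0.00272). *Mb*, myoglobin, rose by 1.42 and *Eno3*, muscle enolase, by 0.82 on the log2 scale. *Pygm*, the glycogen phosphorylase of muscle, was 1399, 1457, 1552, 1390.2 and 1432 in VAS WT and 1684, 1467, 1569, 1637 and 1559.8 in VAS *Stra6-/-*. The *Pygm* groups overlapped and the difference was not called (log2 fold change 0.13 ± 0.14, adjusted p = 0.559).

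**Figure D2:**
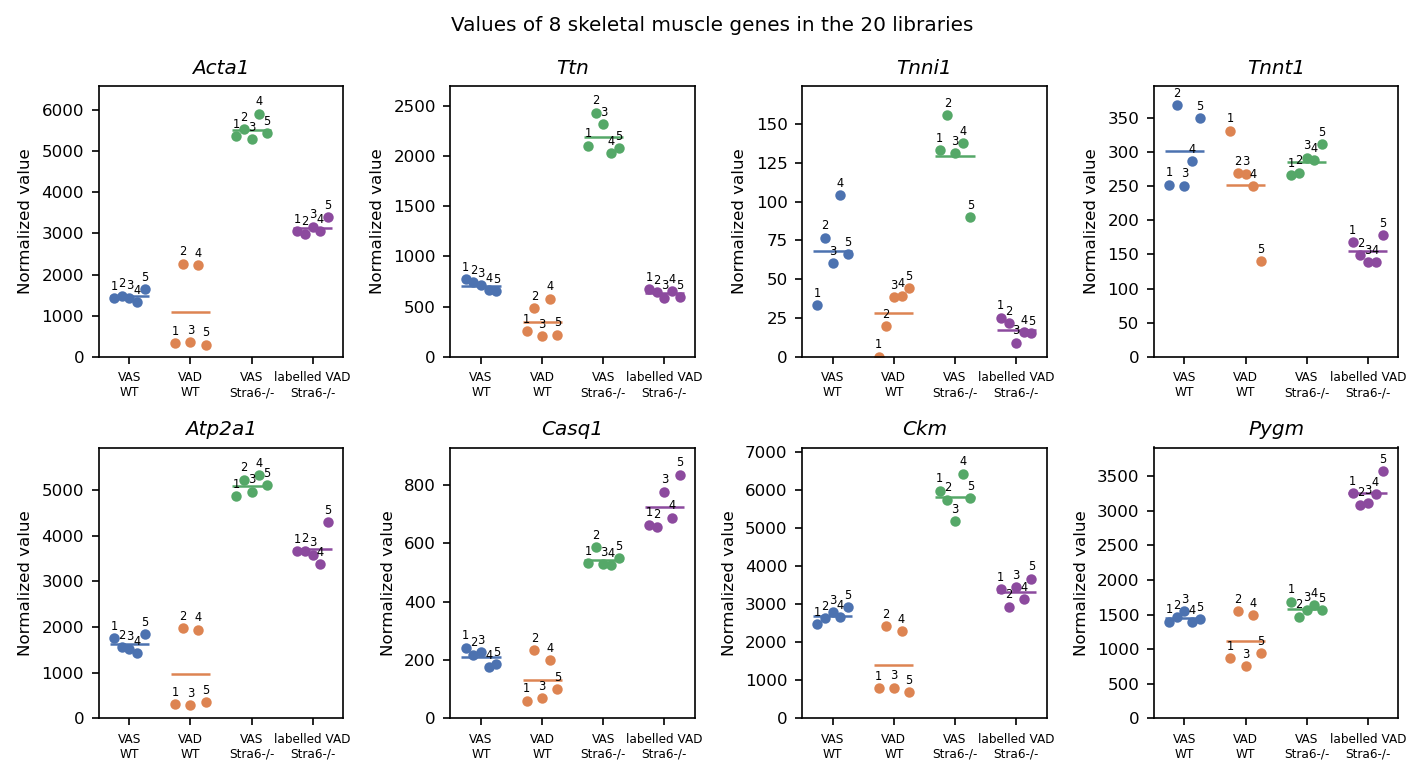
Normalized value (vertical axes, linear and starting at 0) of 8 genes in the 20 libraries; points are libraries numbered by replicate and bars are group means. *Acta1*, *Atp2a1* and *Ckm* are highest in VAS *Stra6-/-*, *Casq1* and *Pygm* are highest in the libraries labelled VAD *Stra6-/-*, while replicates 1, 3 and 5 of VAD WT lie below replicates 2 and 4 except in *Tnni1* and *Tnnt1*.

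In wild type, the deficient diet went with lower values in 3 of the 5 libraries. *Acta1* was 324, 2264, 363, 2235 and 296 in VAD WT, against 1336 to 1653 in VAS WT, so that replicates 1, 3 and 5 lay under the VAS WT range and replicates 2 and 4 over it. *Ckm* was 791, 2427, 806, 2284 and 693 in VAD WT, and there replicates 2 and 4 were also just below VAS WT. Of the 32 genes, 27 lay below the VAS WT range in replicate 1, 27 in replicate 3 and 28 in replicate 5, against 8 in replicate 2 and 11 in replicate 4. Replicates 1, 3 and 5 all lay below replicates 2 and 4 in 25 of the 32 (78.1%), against 31.5% of all genes tested. The same split ran through other lists: the summed value of 9 surface epithelium markers was 1093100.0 to 1125190.0 in replicates 1, 3 and 5 and 370743 to 373897 in replicates 2 and 4, and that of 8 rod markers was 116318 to 119789 and 301145 to 303299. The part of these markers and of the sex-linked genes in the split was not tested.

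Over all 5 VAD WT libraries, 15 of the 32 genes were lower than in VAS WT, 0 were higher and 17 were not called by limma, against 5.5% of all genes called lower and 3.29% called higher. At an unadjusted p under 0.05 the counts were 26 lower and 0 higher, and edgeR and DESeq2 called 8 and 12 lower and 0 higher. The median log2 fold change of the 32 was -0.79. Only *Tnnc1*, *Ttn*, *Ryr1* and *Ckm* had every VAD WT library below every VAS WT library, which is 4 of 32 beside 4.21% of all genes tested. The calls rested on the shared spread of the 4 groups and on replicates 1, 3 and 5. In a fit of VAS WT and VAD WT alone, 0 of the 32 were called (2.33% of all genes lower), with 16 lower at an unadjusted p under 0.05. Without replicates 2 and 4, 25 were lower and 1, *Tpm2*, was higher (20.3% and 17.6% of all genes). Without replicates 1, 3 and 5, 3 were lower, and 5, *Acta1*, *Tnnt3*, *Mybpc1*, *Xirp2* and *Atp2a1*, were higher (15.7% and 17.1% of all genes). Single libraries also moved the count of lower genes: it was 7, 8 and 8 without VAD WT replicate 1, 3 or 5, 23 without replicate 4, and 9 and 6 without VAS WT replicate 4 or 5.

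*Tnni1*, *Mylk2* and *Ttn* were called lower in both parts of VAD WT, without replicates 2 and 4 and without replicates 1, 3 and 5. *Ttn*, at 257, 482, 204, 578 and 221 in VAD WT, had a log2 fold change of -1.15 ± 0.20 against VAS WT (adjusted p = 7.39e-04), which was -1.64 with adjusted p = 3.57e-12 without replicates 2 and 4 and -0.42 with adjusted p = 0.00151 without replicates 1, 3 and 5. *Ryr1* had a log2 fold change of -0.75 (adjusted p = 0.00853), which was -0.97 with adjusted p = 1.91e-04 and -0.42 with adjusted p = 0.106 in the same order. For *Acta1* the direction turned, from -2.16 with adjusted p = 4.22e-15 to 0.62 with adjusted p = 1.09e-06. *Actn3* and *Myoz1* were called over all 5 libraries (-1.50 and -1.54 on the log2 scale) and *Xirp2* was not (-2.09, adjusted p = 0.156), with values of 28.3, 165, 31.2, 225 and 0 that ran from 0 to above the VAS WT range. *Eno3* was not called (log2 fold change 0.048 ± 0.08, adjusted p = 0.782).

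On the deficient diet, compared with VAD WT, 25 of the 32 genes were higher under the VAD *Stra6-/-* label, 1 was lower and 6 were not called, against 26.2% of all genes called higher and 29.6% called lower. The median log2 fold change was 1.12. In 20 of the 32 the groups did not overlap, with the libraries labelled VAD *Stra6-/-* above (18.3% of all genes), and 7 genes passed a log2 fold change of 2 (3.52% of all genes). Without VAD WT replicates 2 and 4, 25 were higher (30.7% of all genes) and the median was 1.67. Without replicates 1, 3 and 5, 20 were higher (23.4% of all genes) and the median was 0.48. The median difference was thus smaller against replicates 2 and 4 alone. The count of lower genes was 3 without VAD WT replicate 1 and 2 without VAD WT replicate 4 or 5 or without replicate 1 or 5 of the libraries labelled VAD *Stra6-/-*. *Stra6* itself was higher in these libraries than in VAD WT, but lower relative to the sum of the RPE markers. The direction given is that of the labels.

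All 8 genes of titin, the Z disc and desmin, all 5 thick filament genes and all 4 energy genes rose in this comparison. *Xirp2* showed the largest difference, from 28.3, 165, 31.2, 225 and 0 in VAD WT to 352, 318, 328, 384 and 337 in the libraries labelled VAD *Stra6-/-* (log2 fold change 3.41 ± 0.87, adjusted p = 0.00217). Without VAD WT replicates 1, 3 and 5 its log2 fold change was 0.83 with adjusted p = 4.54e-05. *Casq1* was 60.1, 234, 68.1, 200.3 and 100.1 in VAD WT and 664, 657, 777, 687 and 835 in the libraries labelled VAD *Stra6-/-*, without overlap (log2 fold change 2.65 ± 0.27, adjusted p = 2.57e-08). It had a log2 fold change of 1.73 with adjusted p = 1.30e-09 without replicates 1, 3 and 5. *Atp2a1* (2.49), *Myoz1* (2.23), *Mybpc2* (2.20), *Acta1* (2.14) and *Actn3* (2.04) also passed 2 on the log2 scale.

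*Pygm* rose here although it had not been called on the sufficient diet. It was 865, 1550.2, 753, 1487 and 938 in VAD WT and 3250.2, 3089, 3116, 3236 and 3575 in the libraries labelled VAD *Stra6-/-*, without overlap (log2 fold change 1.60 ± 0.14, adjusted p = 4.43e-09), and the log2 fold change was 1.93 with adjusted p = 3.23e-16 without VAD WT replicates 2 and 4 and 1.10 with adjusted p = 4.81e-11 without replicates 1, 3 and 5. *Tnnt1*, slow troponin T, fell, from 331, 269, 268, 249.9 and 140.4 to 168, 149, 138, 139 and 178 (log2 fold change -0.65 ± 0.18, adjusted p = 0.00335), and VAD WT replicate 5 lay inside the lower group. The log2 fold change of *Tnnt1* was -0.59 with adjusted p = 0.0151 without VAD WT replicates 2 and 4 and -0.75 with adjusted p = 4.87e-04 without replicates 1, 3 and 5. *Tpm2* (-0.10), *Tnni1* (0.032), *Tnnc1* (-0.72), *Cacna1s* (-0.42), *Ryr1* (0.11) and *Casq2* (0.30) were not called.

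Within the *Stra6-/-* labels, the deficient diet went with lower levels of most of the list. In the libraries labelled VAD *Stra6-/-*, 18 of the 32 genes were lower than in VAS *Stra6-/-*, 1 was higher and 13 were not called, against 28.8% of all genes called lower and 24.4% called higher. The median log2 fold change was -0.70. Groups did not overlap in 27 of the 32, 25 below and 2 above (26.8% and 24.5% of all genes), and 2 genes fell past a log2 fold change of -2 (7.4% of all genes). A fit of these 2 groups alone called 25 lower and 2 higher (32.8% and 29.4% of all genes). *Stra6* averaged 629 in VAS *Stra6-/-* and 2163 under the VAD *Stra6-/-* label. The RPE markers summed to means of 152533 and 579550 in the same order. Relative to this sum, *Stra6* was lower in both of these groups than in either WT group.

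Slow troponins I and C fell the most. *Tnni1* was 133, 156, 131, 138 and 89.9 in VAS *Stra6-/-* and 25.2, 21.6, 9.21, 15.8 and 15.2 in the libraries labelled VAD *Stra6-/-* (log2 fold change -2.87 ± 0.72, adjusted p = 0.00183). *Tnnc1*, the troponin C of slow and cardiac fibres, was 173, 129, 120.0, 112 and 157 and 4.03, 20.7, 28.7, 17.6 and 57.5 (log2 fold change -2.75 ± 0.46, adjusted p = 2.59e-05). Slow *Tnnt1* fell by less (log2 fold change -0.89, adjusted p = 2.15e-04). The libraries labelled VAD *Stra6-/-* also lay below the VAS WT ranges, which were 33.4 to 104 for *Tnni1* and 62.5 to 86.8 for *Tnnc1*. After *Tnni1* and *Tnnc1* came *Ttn*, which was 676, 640.4, 589.6, 657 and 592 in the libraries labelled VAD *Stra6-/-* (log2 fold change -1.79 ± 0.20, adjusted p = 1.51e-07). The genes of the calcium release unit fell as well, *Ryr1* (log2 fold change -1.35 ± 0.18, adjusted p = 1.25e-06) and *Cacna1s* (log2 fold change -1.04 ± 0.19, adjusted p = 7.93e-05). *Ryr1* ranged from 135 to 293 and *Cacna1s* from 119 to 193 in these libraries, against 270.0 to 358 and 184 to 279 in VAS WT.

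Fast troponin I (*Tnni2*, -1.09), *Neb* (-1.10), *Myl1* (-1.08), *Tcap* (-1.06), *Tnnc2* (-0.97), *Mylpf* (-0.87) and *Ckm* (-0.81) fell by about the median or more. *Acta1*, *Tnnt3*, *Mybpc1*, *Mybpc2*, *Ldb3*, *Atp2a1* and *Mb* lay lower in every library without a call, with log2 fold changes of -0.82, -0.63, -0.48, -0.53, -0.49, -0.46 and -0.69. *Des*, *Eno3*, *Xirp2* and *Myoz1* overlapped between the groups (-0.04, -0.10, -0.14 and -0.15). *Pygm* rose from 1583 ± 82.5 to 3253 ± 194 (SD, n = 5 each, log2 fold change 1.04 ± 0.14, adjusted p = 2.50e-06), and *Casq1* lay higher in every library without a call (log2 fold change 0.41 ± 0.27, adjusted p = 0.212).

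**Figure D3:**
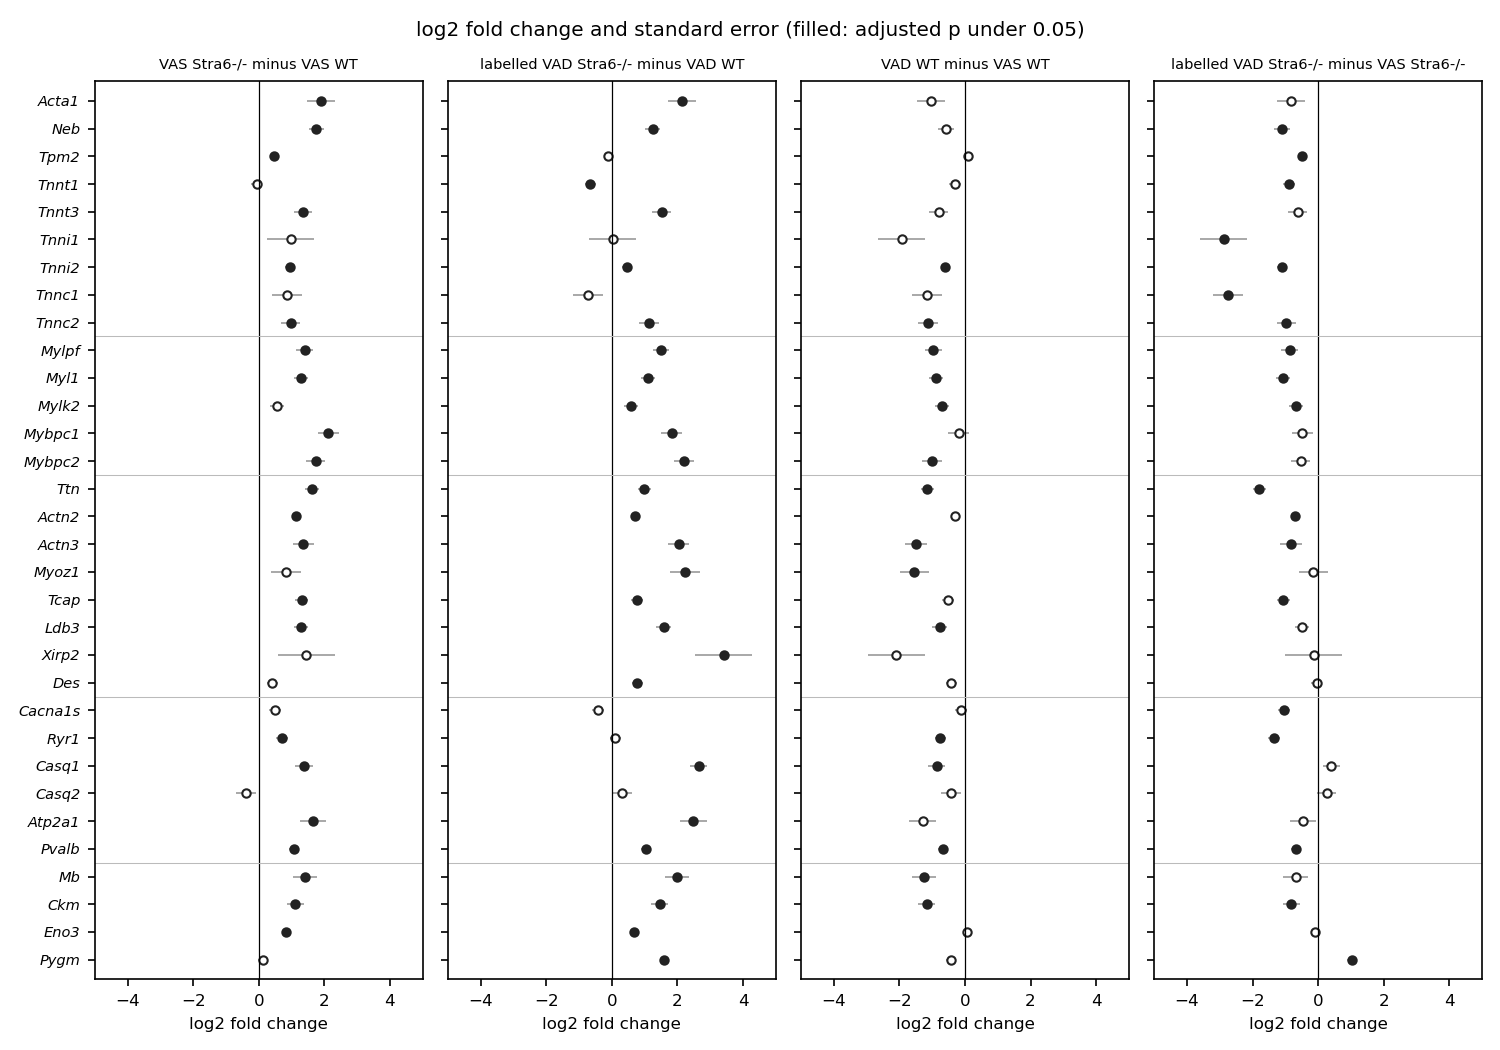
log2 fold change (horizontal axes) with its standard error for the 32 genes in the 4 comparisons, from limma on log2(normalized value + 1) over 20 libraries; filled points had an adjusted p under 0.05 and grey lines divide the roles. Both genotype panels lie mostly right of 0 and both diet panels mostly left, with *Pygm* at 1.04 as the filled point right of 0 in the last panel.

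The difference between the 2 genotype effects was tested as the interaction of genotype and diet. The groups also differed in *Xist* and *Ddx3y*, and the interaction cannot be told apart from that difference. Of the 32 genes, 2 had a positive interaction, *Casq1* (interaction 1.27 ± 0.38, adjusted p = 0.00881) and *Pygm* (interaction 1.47 ± 0.20, adjusted p = 3.91e-06), and 2 had a negative interaction, *Tpm2* (interaction -0.58 ± 0.10, adjusted p = 7.46e-05) and *Cacna1s* (interaction -0.91 ± 0.27, adjusted p = 0.0081), all on the log2 scale. The genotype difference on the sufficient and on the deficient diet was 0.48 and -0.10 for *Tpm2* and 0.49 and -0.42 for *Cacna1s*, of which only that of *Tpm2* on the sufficient diet was called. Over all genes tested, 19.5% were called with a positive and 24.8% with a negative interaction. These counts depended on the VAD WT libraries: without replicates 2 and 4 they were 18 positive and 2 negative (25.7% and 29.0% of all genes), and without replicates 1, 3 and 5 they were 1 positive and 24 negative (21.6% and 29.0% of all genes). Leaving out VAD WT replicate 2 or 4 gave 7 and 4 positive calls. The negative calls numbered 7, 5 and 5 without VAD WT replicate 1, 3 or 5, 4 without VAS WT replicate 1 and 5 without replicate 5 of the libraries labelled VAD *Stra6-/-*. *Pygm* had an interaction of 1.80 with adjusted p = 2.17e-13 without replicates 2 and 4 and of 0.97 with adjusted p = 8.51e-09 without replicates 1, 3 and 5, while that of *Casq1* was 1.88 with adjusted p = 2.46e-08 and 0.35 with adjusted p = 0.0706.

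Ratios of paralogs within a library do not depend on how libraries were scaled, apart from a pseudocount of 1, and they are given as descriptions on the log2 scale. Troponin I, fast *Tnni2* over slow *Tnni1*, in VAS WT was 4.37 ± 0.59 (SD, n = 5), 4.33 ± 0.23 in VAS *Stra6-/-* and 6.11 ± 0.56 in the libraries labelled VAD *Stra6-/-*. The VAD WT libraries had 9.32, 5.99, 4.25, 4.77 and 4.17, and the first of these belongs to a library in which *Tnni1* was listed at 0. Troponin C, *Tnnc2* over *Tnnc1*, was 4.48 ± 0.35, 4.58 ± 0.28 and 6.36 ± 1.26 in the same 3 groups and 4.50 ± 1.14 in VAD WT. These ratios thus overlapped between both groups on the sufficient diet and were higher than there in every library labelled VAD *Stra6-/-*.

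Troponin T and calsequestrin moved with the genotype label. *Tnnt3* over *Tnnt1* was 2.37 ± 0.25 in VAS WT and 3.78 ± 0.15 in VAS *Stra6-/-*. It was 0.60, 2.85, 0.89, 2.89 and 2.11 in VAD WT and 4.04 ± 0.16 in the libraries labelled VAD *Stra6-/-*. *Casq1* over *Casq2* was 1.88 ± 0.53 in VAS WT, 1.44 ± 0.62 in VAD WT, 3.64 ± 0.38 in VAS *Stra6-/-* and 3.79 ± 0.26 in the libraries labelled VAD *Stra6-/-*. In both ratios no WT library reached a library with the *Stra6-/-* label. *Mybpc2* over *Mybpc1* overlapped between all groups, 0.22 ± 0.48, -0.59 ± 0.54, -0.17 ± 0.24 and -0.21 ± 0.26, and *Actn3* over *Actn2* was -1.26, 0.96, -0.62, 0.53 and -1.80 in VAD WT against 0.76 ± 0.17 in VAS WT. There, VAD WT replicates 1, 3 and 5 were the 3 of the 20 libraries with less *Actn3* than *Actn2*.

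**Figure D4:**
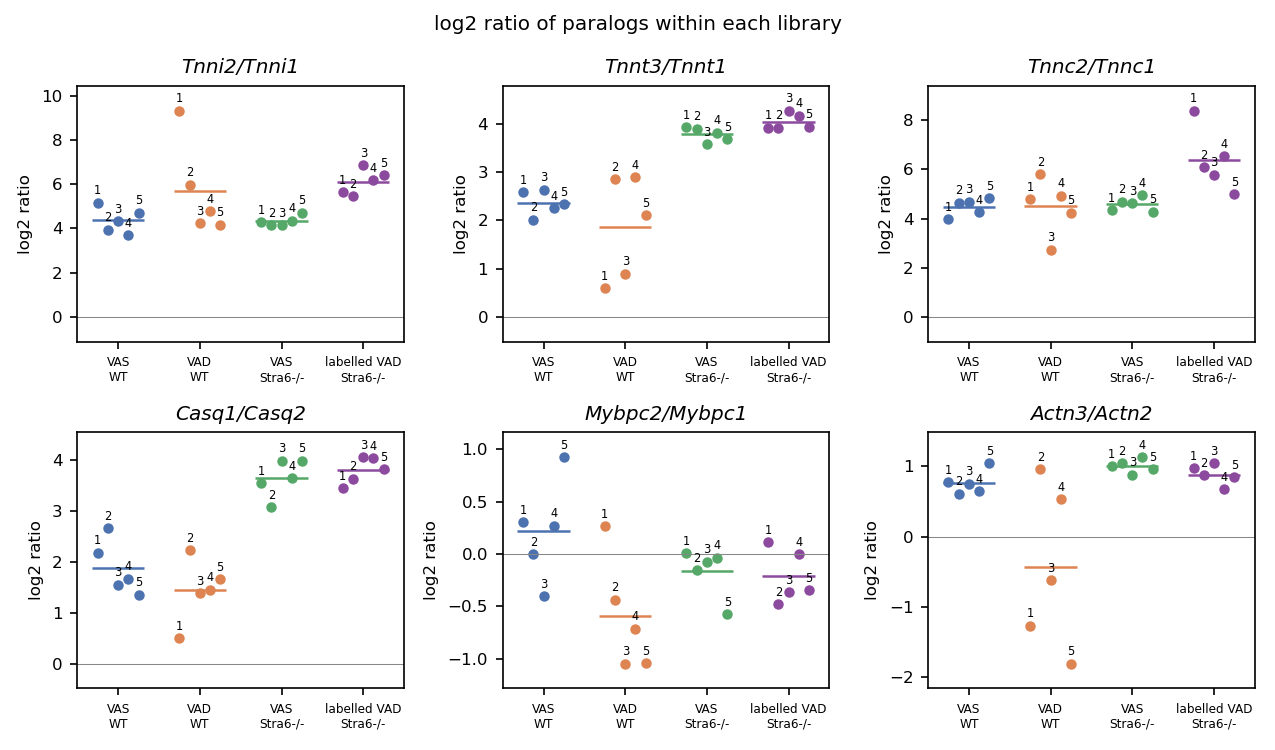
log2 ratio of 6 pairs of paralogs (vertical axes) in each of the 20 libraries, numbered by replicate; bars are group means. Troponin I and C ratios in the libraries labelled VAD *Stra6-/-* lie above both groups on the sufficient diet and overlap VAD WT, and the troponin T and calsequestrin ratios separate both WT groups from both groups with the *Stra6-/-* label.

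The 32 genes did not move as a single block. Over the 20 libraries, the Pearson correlation of a gene's log2(value + 1) with the mean standardised profile of the other 31 was 0.994 for *Mylpf*, 0.992 for *Myl1* and 0.989 for *Ckm*. It was 0.468 for *Pygm*, 0.471 for *Tnnc1*, 0.427 for *Tpm2*, 0.195 for *Casq2* and 0.0802 for *Tnnt1*. These values describe libraries that share groups, scaling and depth. *Tpm2*, which smooth muscle also uses, stood in VAD WT at 4653, 4084, 4732, 3721 and 4816, so that replicates 1, 3 and 5 were above replicates 2 and 4, the reverse of most of the list.

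Outside the 32, 65 other muscle genes from 6 lists were tested. Of these, 32 rose and 4 fell in VAS *Stra6-/-* against VAS WT (15.9% and 10.8% of all genes tested). In the libraries labelled VAD *Stra6-/-* against VAD WT, 32 rose and 9 fell (26.2% and 29.6% of all genes). In VAD WT against VAS WT, 12 fell (limma, all 5 VAD WT libraries, 5.5% of all genes). In the libraries labelled VAD *Stra6-/-* against VAS *Stra6-/-*, 4 rose and 18 fell (24.4% and 28.8% of all genes), so the falls there were near the share of all genes. Without VAD WT replicates 2 and 4 the counts against VAD WT were 37 risen and 10 fallen (5765 and 6108 of all 18807 genes). In VAD WT they were 1 risen and 30 fallen (17.6% and 20.3% of all genes). Without replicates 1, 3 and 5 they were 26 and 7 (4403 and 5416 of 18807 genes), and 9 and 13 (17.1% and 15.7% of all genes). Of the 22 other sarcomere genes, 12 rose in VAS *Stra6-/-*. *Myom1* of the M band was 539 ± 57.5 in VAS WT, 628 ± 104 in VAD WT, 586 ± 14.5 in VAS *Stra6-/-* and 429 ± 101 under the VAD *Stra6-/-* label. Its VAD WT replicates 1, 3 and 5 (710, 724 and 675) lay above replicates 2 and 4 (528 and 504), the reverse of most of the 32. Of the 12 other excitation-contraction coupling genes, 6 rose and 1, the channel subunit gene *Cacnb1*, fell in VAS *Stra6-/-*.

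Of the 9 myosin heavy chain genes, which encode the motor itself, 6 rose in VAS *Stra6-/-*. There, 15.9% of all genes tested were called higher and 10.8% lower. The fast chain gene *Myh4* had a mean of 2044 ± 199 in VAS WT and 4868 ± 202 in VAS *Stra6-/-*, and the embryonic chain gene *Myh3* had 517 ± 61.7, 1799.5 ± 70.0 and, in the libraries labelled VAD *Stra6-/-*, 143 ± 17.9. The 8 tested neuromuscular junction genes gave 1 rise and 1 fall in VAS *Stra6-/-*, near the shares of all genes. The fall was that of *Rapsn*, which clusters acetylcholine receptors (log2 fold change -0.49 ± 0.12, adjusted p = 0.00505), and *Rapsn* rose in the libraries labelled VAD *Stra6-/-* against VAD WT (log2 fold change 1.89 ± 0.12, adjusted p = 2.56e-11), by 2.03 without VAD WT replicates 2 and 4 and 1.69 without replicates 1, 3 and 5. Of the 5 myogenic factors, 3 rose in VAS *Stra6-/-*, from low levels: *Myf6* from 8.26 ± 8.86 to 48.9 ± 8.21, *Myog* from 2.33 ± 3.68 to 20.6 ± 4.05 and *Myod1* from 2.71 ± 3.97 to 9.11 ± 2.27. Of 9 other muscle energy genes, 4 rose and 2 fell there, and *Pfkm*, phosphofructokinase, was not called (log2 fold change 0.24 ± 0.10, adjusted p = 0.0877).

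Markers of the other tissues of the eyecup also differed between the groups. The 6 cardiac muscle markers summed to 154 to 208 in VAS WT and 98.8 to 139 in VAS *Stra6-/-*, far below the skeletal list, and the leading markers *Myl4*, *Tnni3* and *Tnnt2* had log2 fold changes of -0.42, -1.12 and 0.23 that were not called. The 8 smooth muscle and pericyte markers summed to 12358 to 13087 in VAS WT and 9029 to 9385 in VAS *Stra6-/-*, where 5 fell (10.8% of all genes). They summed to 24615 to 27048 in the libraries labelled VAD *Stra6-/-*, where 8 rose against VAS *Stra6-/-* (24.4% of all genes). The skeletal genes thus moved against the smooth muscle markers in both of these comparisons. The 7 tendon markers summed to 8555 to 9351 in VAS WT, 9085 to 9808 in VAS *Stra6-/-* and 40448 to 42926 in the libraries labelled VAD *Stra6-/-*, and in VAD WT to 8396 to 9457 in replicates 1, 3 and 5 and 36930.5 to 37506 in replicates 2 and 4.

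The RPE markers moved with the 32 genes in VAD WT against VAS WT, where 7 of the 10 fell, against 5.5% of all genes (median log2 fold change of the list -0.98). Their sum was 131215 to 147777 in VAS WT, 41385 to 44096 in VAD WT replicates 1, 3 and 5 and 82455 to 84526 in replicates 2 and 4, so that the libraries lowest for the 32 genes were also lowest for the RPE markers. The smooth muscle markers had sums of 9234 to 9800.0 and 13825 to 14348 in these libraries. Without replicates 2 and 4, 9 RPE markers fell (20.3% of all genes). Without replicates 1, 3 and 5, 5 fell and 1 rose (15.7% and 17.1% of all genes).

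The libraries labelled VAD *Stra6-/-* differed from the rest in most of these markers. The 10 RPE markers summed to 557815 to 601683 there and 147550.0 to 155220.0 in VAS *Stra6-/-*, the 9 surface epithelium markers to 20934 to 28157 and 821243 to 853711, and the 8 rod markers to 82939 to 96067 and 151337 to 163813. The 7 fat markers summed to 249 to 299 and 81.3 to 124. In VAS *Stra6-/-* against VAS WT, 1 of the 10 RPE markers rose and 1 fell, and 1 of the 8 rod markers fell. Of the 7 tendon markers 2 fell, and of the 9 surface epithelium markers 1 rose and 2 fell. Over all genes tested, 15.9% were called higher and 10.8% lower there. The sum of the surface epithelium markers was 556289 to 686748 in VAS WT, below every VAS *Stra6-/-* library, so that this sum moved with the 32 genes. Of the 9, 5 were higher in every VAS *Stra6-/-* library, which held for 19.3% of all genes tested. The RPE sum in VAS *Stra6-/-* overlapped that of VAS WT. Against VAD WT, the libraries labelled VAD *Stra6-/-* had higher values in 9 of the 10 RPE, 8 of the 8 smooth muscle, 6 of the 7 tendon and 4 of the 7 fat markers. They had lower values in 9 of the 9 surface epithelium and 7 of the 8 rod markers. Over all genes, 26.2% were called higher and 29.6% lower. Without VAD WT replicates 2 and 4 the marker counts were 9, 8, 6, 3, 9 and 7 in the same order (5765 of 18807 genes higher and 6108 lower). Without replicates 1, 3 and 5 they were 9, 7, 4, 3, 9 and 8 (4403 genes higher and 5416 lower). In these lists no marker was at 0 in every library of a group. The part of these tissues in the differences of the 32 genes was not tested.

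**Figure D5:**
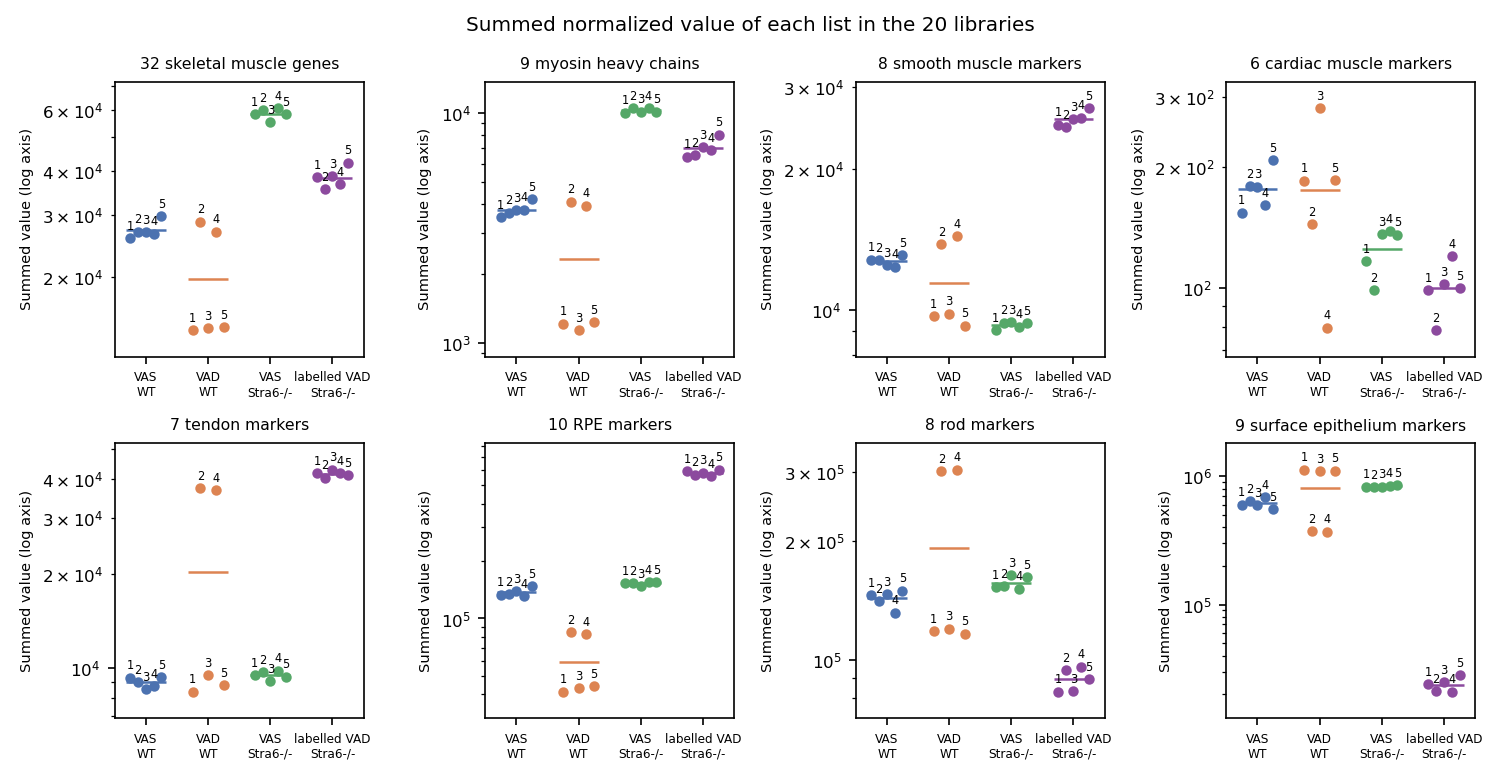
Summed normalized value (vertical axes, logarithmic) of the 32 genes, of the myosin heavy chains and of 6 marker lists in the 20 libraries, numbered by replicate; bars are group means. The 32 genes and the myosin heavy chains are highest in VAS *Stra6-/-*, whereas the smooth muscle, tendon and RPE markers are highest in the libraries labelled VAD *Stra6-/-*, where the surface epithelium markers are lowest.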

How the data were processed

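RNA from 20 pooled RPE-choroid samples was sequenced after poly(A) selection. Per the labels, the authors aligned reads to GRCm38 (mm10) with STAR 2.5.3a, estimated counts per gene with RSEM 1.2.30 and scaled them with DESeq2 1.32.0. The deposited values behave as a signal of gene counts divided by 1 size factor per library, and whole reads were recovered in 19 of the 20 libraries (100% of nonzero values within 0.05 of a whole read), which held 13331903 to 21878614 reads. In the other library, replicate 1 labelled VAD *Stra6-/-*, 1 read is worth too nearly 1 for the check to tell, and it was left out of the count tests.

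Genes with a total of at least 5 reads were kept. The main test was limma 3.58.1 (R 4.3.3) on log2(value + 1) with 1 mean per group over all 20 libraries, an intensity trend and Benjamini-Hochberg adjustment over 18807 genes. A fold change is therefore on the log2(value + 1) scale and understates changes of low genes. The deposited values were not raw counts, so that the count tests, edgeR 4.0.16 and DESeq2 1.42.0 on recovered reads, were alternatives. Other alternatives were pseudocounts of 0.5 and 4, TMM scaling, other filters, fits of 2 groups, a replicate block and libraries left out. The fits were tested on simulated data. Lengths are merged exons of GENCODE vM21.

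The 32 genes, the other lists and the marker lists were chosen with earlier results of these data known. Named are the 32, the 3 genes of each other list with the highest mean (of which 1 is not reported here), *Stra6*, and the 10 genes outside the lists most like the 32 in profile, while *Xist*, *Ddx3y* and *Myod1* were added after their values were seen. No set test was run. Low counts limit *Tnni1*, *Tnnc1* and *Casq2*. Genes of actin, myosin and troponin families share sequence, and RSEM divides shared reads by estimate.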

Additional observations from a re-analysis of the deposited data

Results flagged for a closer look

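A single library stood far from the other 4 of its group, by Dixon's criterion, in 5 of the 128 gene and group pairs tested, where chance gives about 1 in 20. In VAS *Stra6-/-*, replicate 3 was the lowest for *Tnnt3* at 3501 (nearest 4006), for *Tcap* at 1438 (nearest 1788) and for *Mb* at 1706 (nearest 2214). Each of these was still above every VAS WT library. In the libraries labelled VAD *Stra6-/-*, replicate 4 was the lowest for *Ldb3* at 257 (nearest 353) and replicate 5 the highest for *Eno3* at 2175 (nearest 1800.5).

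The genotype effect differed between the diets, by the interaction term, in 4 of the 32 genes. Over all genes tested, 19.5% had a positive and 24.8% a negative interaction, so with all 5 VAD WT libraries the call was rarer in the list. It was not rarer there under either omission of VAD WT libraries given below. On the log2 scale the difference was 1.47 for *Pygm*, 1.27 for *Casq1*, -0.91 for *Cacna1s* and -0.58 for *Tpm2*. These calls depended on the VAD WT libraries, with 18 positive and 2 negative without replicates 2 and 4 (25.7% and 29.0% of all genes). Without replicates 1, 3 and 5 there were 1 positive and 24 negative (21.6% and 29.0% of all genes), and *Casq1* was not called. Beside the interactions stand the *Stra6* values on the deficient diet, which run opposite to the genotype label where RPE markers also differ. Relative to the sum of the RPE markers, these values run with the label.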

How the results depend on the processing

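The 22 genes higher in VAS *Stra6-/-* than in VAS WT stayed within 1.5 times that number under every alternative run, from 22 to 30. In VAD WT against VAS WT, 15 genes were lower in the main analysis, 8 with no filter on low values, 8 by edgeR with TMM or with size factors, 12 by DESeq2, 0 in the limma fit of these 2 groups alone (16 at an unadjusted p under 0.05), 25 without VAD WT replicates 2 and 4 and 3 without replicates 1, 3 and 5, and 6 to 23 when single libraries were left out; the higher genes numbered 1 without replicates 2 and 4 and 5 without replicates 1, 3 and 5. In the libraries labelled VAD *Stra6-/-* against VAD WT, the 1 lower gene became 2 under TMM scaling, edgeR with either scaling, DESeq2 and both omissions of VAD WT libraries, and 1 to 3 when single libraries were left out. Against VAS *Stra6-/-*, the 1 higher gene became 2 in the fit of these 2 groups alone and under both omissions. Interactions called lower numbered 4 among genes with a mean of at least 10, 4 by edgeR with either scaling and 8 by DESeq2, and 24 without replicates 1, 3 and 5, with 18 and 1 called higher under the 2 omissions; single libraries left out gave 2 to 7 of each. Apart from the fewer samples or groups in a fit, the cause was not tested.

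Leaving out replicates 1, 3 and 5 was added after seeing the data. Directions also turned for single genes. In VAD WT against VAS WT, omission of replicates 1, 3 and 5 gave log2 fold changes of 0.62 for *Acta1*, 0.15 for *Neb*, -0.082 for *Tpm2*, 0.30 for *Tnnt3*, 0.83 for *Mybpc1*, 0.039 for *Mybpc2*, 0.075 for *Myoz1*, 0.041 for *Tcap*, 0.49 for *Xirp2*, 0.15 for *Des*, 0.33 for *Cacna1s*, 0.056 for *Casq1*, 0.10 for *Casq2*, 0.28 for *Atp2a1*, 0.16 for *Mb* and 0.071 for *Pygm*. *Eno3* was -0.0032 without replicates 2 and 4, and *Mybpc1* was 0.072 and 0.073 by edgeR and 0.063 by DESeq2. In the libraries labelled VAD *Stra6-/-* against VAD WT, omission of replicates 1, 3 and 5 gave 0.063 for *Tpm2*, -0.72 for *Tnni1*, -0.22 for *Ryr1* and -0.23 for *Casq2*, and *Tnni1* was -0.23 with a pseudocount of 4, -0.88 and -0.86 by edgeR and -0.86 by DESeq2. With single libraries left out, the values ran from -0.040 to 0.24 for *Ryr1* and -0.99 to 0.38 for *Tnni1* there, from -0.073 to 0.0061 for *Des* against VAS *Stra6-/-*, from -0.25 to 0.013 for *Cacna1s* and -0.47 to 0.14 for *Mybpc1* in VAD WT against VAS WT, and from -0.12 to 0.014 for *Tnnt1* in VAS *Stra6-/-* against VAS WT.

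Over all genes, the count tests called 4880 (edgeR with TMM) and 5455 (DESeq2) genes in VAS *Stra6-/-* against VAS WT, where limma called 5010. Replicate numbers did not pair the samples (correlation of same-numbered deviations -0.134 to 0.0948, median 0.00596). With the replicate number as a block, the genes lower in VAD WT numbered 14 and the negative interactions 3. The ratios and sums stayed within 1 SD under their alternatives. Fold changes could not be bounded well for *Tnni1*, *Tnnc1* and *Casq2*, whose highest normalized value in any library was 76.8 (*Casq2*) to 173 (*Tnnc1*).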

Other observations

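Outside all lists, 10 genes with a mean of at least 10 had profiles most like the mean standardised profile of the 32 genes over the 20 libraries, with Pearson correlations from 0.948 to 0.959. They were *Insr*, *Fosb*, *Luzp1*, *Lmtk2*, *Furin*, *Mat2a*, *Cgnl1*, *Vat1*, *Lrba* and *Gsk3b*. *Insr*, the insulin receptor, averaged 1547 in VAS WT, 1238 in VAD WT, 1990.5 in VAS *Stra6-/-* and 1656 in the libraries labelled VAD *Stra6-/-*, and *Fosb*, an immediate early transcription factor, averaged 245, 197, 1020.0 and 352 in the same order. The order of the group means of these genes was that of the sum of the 32. The correlations describe 20 libraries in 4 groups and are not a test.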
